A study of Mus musculus with 12 samples.

Results

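Mouse embryonic stem cells lacking the ubiquitin ligase Arkadia were compared with wild-type (WT) cells after 6 h of Activin A, in 4 of the 12 libraries of the series. The WT lines 18 and 26 and the Arkadia-null (-/-) lines 25 and 39 all had the 129SvEv background, and each line gave 1 library per treatment. Per the labels' protocols, all cells left 2i and LIF medium for N2B27 on fibronectin for 24 h, then spent 4 h with SB431542 at 10 µM, which blocks the kinases of the type I receptors for Activin and Nodal. They were harvested at that point (SB) or washed and given 10 ng/ml Activin A for 3 h or 6 h, so the controls here carried the same inhibitor and Activin as the null cells and differed from them in genotype. The other 8 libraries, from SB and 3 h, enter below as the reference for what was already present before 6 h and as part of the estimate of the spread. With 2 lines per genotype, a property of a line and the genotype cannot be told apart. The labels give no replicate culture of a line, so the spread in the p-values is that between lines within a group, pooled over 6 groups. The fit counts the 3 libraries of a line as independent, although they share that line. On means of the 4 lines over all treatments, 0 genes passed limma's adjusted p of 0.05.

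Activin and Nodal bind type I and type II serine/threonine kinase receptors, which phosphorylate SMAD2 and SMAD3. With SMAD4 and DNA-binding partners such as FOXH1, these SMADs switch on a set of genes that includes inhibitors of the pathway itself, among them Skil, Smad7 and the Lefty genes. Arkadia, encoded by Rnf111, is a RING-type ligase known to mark the corepressors SnoN (the product of Skil) and SKI for degradation when the pathway is active, which frees SMAD targets from repression. In embryonic stem cells the pathway is known for its part in primed pluripotency and in mesendoderm formation.

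The disrupted gene stood at 3.42 and 3.19 FPKM in WT lines 18 and 26 and at 0.667 and 0.539 FPKM in null lines 25 and 39 at 6 h. FPKM values correct the fragments of a gene for its length and for the depth of the library, and lines are named in this order throughout. Rnf111 (chromosome 9, 70425430 to 70503834, mm10, minus strand) therefore fell by 1.43 on the log2(FPKM + 1) scale (SE 0.101, limma adjusted p = 0.0013). The same scale holds for every log2 difference below, always null minus WT. In SB and at 3 h the difference was -1.52 and -1.47. All 10 markers of embryonic stem cells were present in all 4 libraries, with summed levels of 1496, 1468, 1299.6 and 1471 FPKM. The libraries correlated across genes at 0.987 to 0.992 on the log2 scale. The depth of the 6 h libraries, read from the steps between low values and relative to null line 39, was 1.503, 1.33, 1.26 and 1, and null line 39 also had the highest share of FPKM in ribosomal protein genes (19.2% against 17.5 to 18.0%). The SD of a gene between lines had a median of 0.0587 in WT and 0.110 in null cells.

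At 6 h, 27 of 12823 genes (0.211%) passed an adjusted p of 0.05, of which 19 rose (0.148%) and 8 fell (0.0624%) in null cells. The genes that fell included Gal, Skil and Zbp1, which Activin had raised in WT cells by 3 h. Among those that rose were annexins, S100 proteins, the actin-binding gene Tagln, genes of the troponin complex and the BMP target Id3. Of all genes tested, 81 had an absolute log2 difference of at least 1, and 8 of these were called. At an unadjusted p under 0.05 there were 1881 genes (14.7%). The 2 null values lay outside the 2 WT values for all 27 called genes, and for 23.7% (above) and 25.7% (below) of all genes tested.

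**Figure D1:**
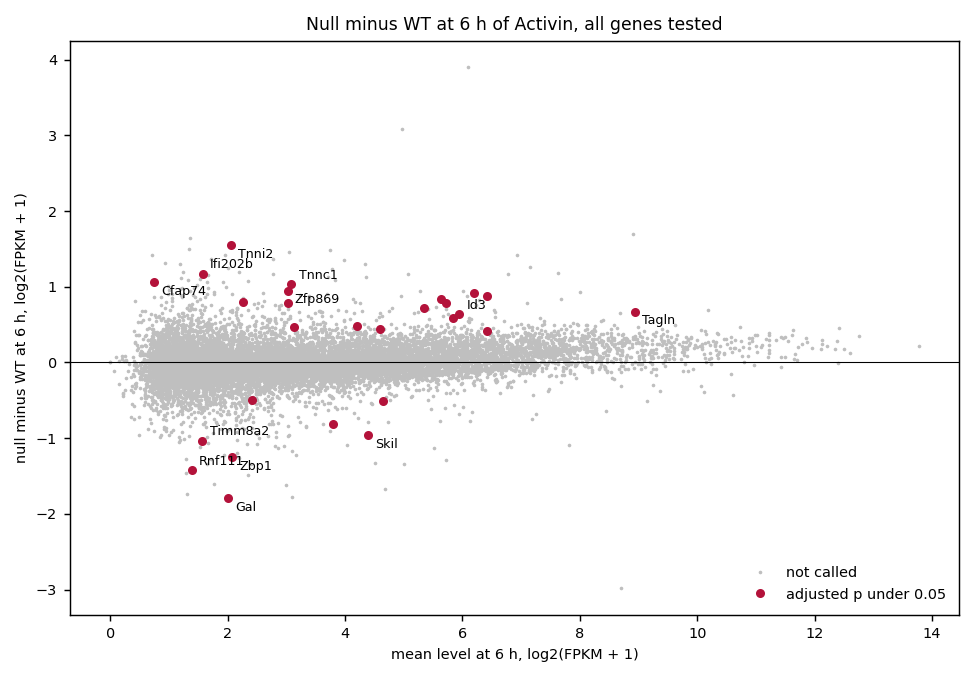
Null minus WT difference in log2(FPKM + 1) at 6 h (vertical axis) against the mean level in log2(FPKM + 1) (horizontal axis), 1 point per gene tested, with called genes in red and some of them named. The 27 called genes lie among many uncalled genes of similar size: 81 genes differ by at least 1, and 8 of those were called.

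Skil (chromosome 3, 31094619 to 31122577, plus strand), which encodes SnoN, had 28.56 and 28.21 FPKM in WT lines and 14.12 and 14.02 FPKM in null lines. The means were 28.4 ± 0.243 and 14.1 ± 0.0696 FPKM (SD, n = 2), a ratio of 2.02, and the gene fell by 0.96 (SE 0.0650, adjusted p = 0.0013). The lines of a genotype lay close together and far from those of the other. In SB the WT lines had 10.9 and 11.1 FPKM and the null lines 8.81 and 7.97 FPKM (log2 difference -0.36, adjusted p = 0.075). At 3 h they stood at 35.5 and 38.6 against 15.7 and 16.2 FPKM (log2 difference -1.16, adjusted p = 0.00043). From SB to 6 h, Skil rose by 1.29 in WT and by 0.68 in null lines. The difference between these responses (-0.61) did not pass the adjusted p (0.51).

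Gal (chromosome 19, 3409911 to 3414794, minus strand), which encodes the neuropeptide galanin, had 5.70 and 7.29 FPKM in WT lines and 1.37 and 0.949 FPKM in null lines. The means were 6.49 ± 1.12 and 1.16 ± 0.298 FPKM, a ratio of 5.60 and a log2 difference of -1.79 (SE 0.173, adjusted p = 0.0073), the largest fall of any called gene. In SB all 4 lines were low, at 0.301 and 0.185 FPKM in WT and 0.487 and 0.190 FPKM in null cells. At 3 h WT lines reached 9.89 and 11.7 FPKM and null lines 1.59 and 1.14 FPKM. The level in WT cells was thus lower at 6 h than at 3 h in each line, and null lines lay below WT lines at both times.

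Zbp1, which encodes an innate sensor of Z-form nucleic acids, had 4.84 and 6.19 FPKM in WT lines against 1.75 and 1.71 FPKM in null lines, a log2 difference of -1.25 (SE 0.134, adjusted p = 0.011). Its locus in the table (chromosome 2, 173206758 to 173207831) is partial, a term for loci that cover under 0.5 of the annotated gene. This one covers 0.087 of the gene, so the value describes that stretch. In SB the locus was near 0 in all lines (0.112 and 0.165 FPKM in WT, 0.0332 and 0.0895 FPKM in null cells). At 3 h it stood at 4.78 and 4.02 FPKM in WT and 0.595 and 0.871 FPKM in null cells. Unlike Gal and Skil, whose mean level in WT lines was lower at 6 h than at 3 h, the Zbp1 locus had means of 4.40 FPKM at 3 h and 5.51 FPKM at 6 h in WT lines. All 3 are among the genes that Activin raised in WT cells at 3 h by an absolute log2 change of at least 1.

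**Figure D2:**
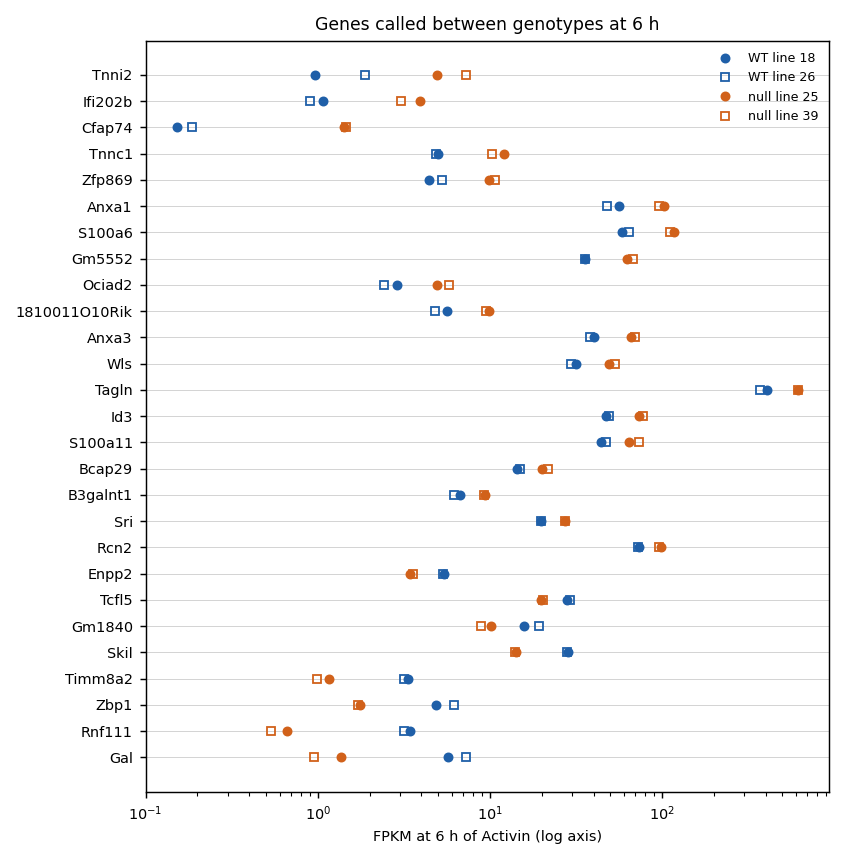
FPKM at 6 h (log axis) of the 27 called genes, 1 gene per row and 1 marker per library, with WT lines 18 and 26 in blue and null lines 25 and 39 in orange. The null points lie outside the WT points for every gene shown, from Gal at the bottom (log2 difference -1.79) to Tnni2 at the top (1.55).

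The 5 other genes that fell included 1 that was called at 3 h and not in SB (Tcfl5). Timm8a2, of the family of small chaperones of the mitochondrial intermembrane space, had 3.33 and 3.16 against 1.16 and 0.994 FPKM (log2 difference -1.03, SE 0.127, adjusted p = 0.022), and was called in SB as well. Enpp2, which encodes the lysophospholipase D autotaxin, had 5.39 and 5.33 against 3.46 and 3.56 FPKM (-0.50, SE 0.0706, adjusted p = 0.036). Under quantile normalization Enpp2 was not called (adjusted p = 0.067). Its level had been higher in SB (19.8 and 19.1 FPKM in WT, 11.2 and 12.3 FPKM in null cells). The log2 difference there was -0.68. From SB to 6 h the level of Enpp2 fell in both genotypes, with log2 changes of -1.68 in WT and -1.50 in null lines. Tcfl5, a basic helix-loop-helix factor whose locus overlaps Col9a3, had 28.2 and 29.4 against 19.8 and 20.2 FPKM (-0.50, adjusted p = 0.021). Its difference was -0.28 in SB (adjusted p = 0.12) and -0.48 at 3 h (0.016). Gm1840 is a processed pseudogene on a partial locus, which can share reads with its parent gene, and it had 15.8 and 19.2 against 10.1 and 8.85 FPKM. Rnf111 is the remaining one. The next genes by p were taken among uncalled, non-overlapping genes lower by at least 0.5. They were 1700120C14Rik (-0.55), Fermt3 (-0.56), which encodes the integrin activator kindlin-3, Gm11454 (-0.86) and Foxd3 (-0.53), a repressor active in pluripotent cells. Their adjusted p ran from 0.056 to 0.057, and Fermt3 and Gm11454 are partial loci.

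Beyond Skil and Rnf111, no listed component of the pathway itself was called at 6 h. With 2 lines per genotype, a missing call does not show that the levels were equal. None of 6 ligands and co-receptors, 7 secreted antagonists, 10 receptors or 10 SMADs and their partners was called by limma, and 2, 0, 0 and 1 of them had an unadjusted p under 0.05. Among the ligands, Nodal had 63.4 and 61.1 FPKM in WT and 42.7 and 51.9 FPKM in null lines (log2 difference -0.40, adjusted p = 0.17). The genotypes did not overlap, but the null lines lay about as far from each other as the higher of them lay from WT line 26. The co-receptor Tdgf1 overlapped between genotypes (225 and 257 against 214 and 270.1 FPKM), as did Gdf3 (53.2 and 53.7 against 50.4 and 56.8 FPKM). Gdf1 (-0.45) and Tgfb2 (0.39) had adjusted p of 0.39 and 0.29.

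The secreted antagonists Lefty1 and Lefty2, which are Nodal targets, had -0.37 (adjusted p = 0.35) and -0.27 (0.49). Lefty1 stood at 40.9 and 40.8 against 35.4 and 27.8 FPKM, while Lefty2 overlapped (17.3 and 21.8 against 19.4 and 13.0 FPKM). Fst (follistatin, which binds and blocks Activin) had a log2 difference of -0.18. At the receptors Acvr1b and Acvr2b it was -0.11 and -0.08, and at Smad2, Smad3 and Smad4 it was 0.15, -0.03 and 0.04. Foxh1, the DNA-binding partner, had 20.8 and 22.9 against 19.3 and 18.3 FPKM (-0.20, adjusted p = 0.32).

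Of 11 intracellular inhibitors and corepressors Skil alone was called, and 8 of the 11 were lower in both null lines than in both WT lines, against 25.7% of all genes. Smad7, which blocks the activated receptor, had 5.77 and 6.49 against 4.83 and 4.35 FPKM (-0.35, adjusted p = 0.18). Pmepa1, which sequesters SMAD2 and SMAD3, had 2.60 and 3.47 against 1.31 and 1.35 FPKM on a partial locus (-0.79, adjusted p = 0.064). At 3 h Pmepa1 was called, with -1.21 (adjusted p = 0.010). Tgif2 had -0.44 (adjusted p = 0.22) and Ski, the other corepressor that Arkadia marks, -0.09 (0.68). Of 11 ubiquitin regulators of the pathway, Rnf111 was the called one.

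**Figure D3:**
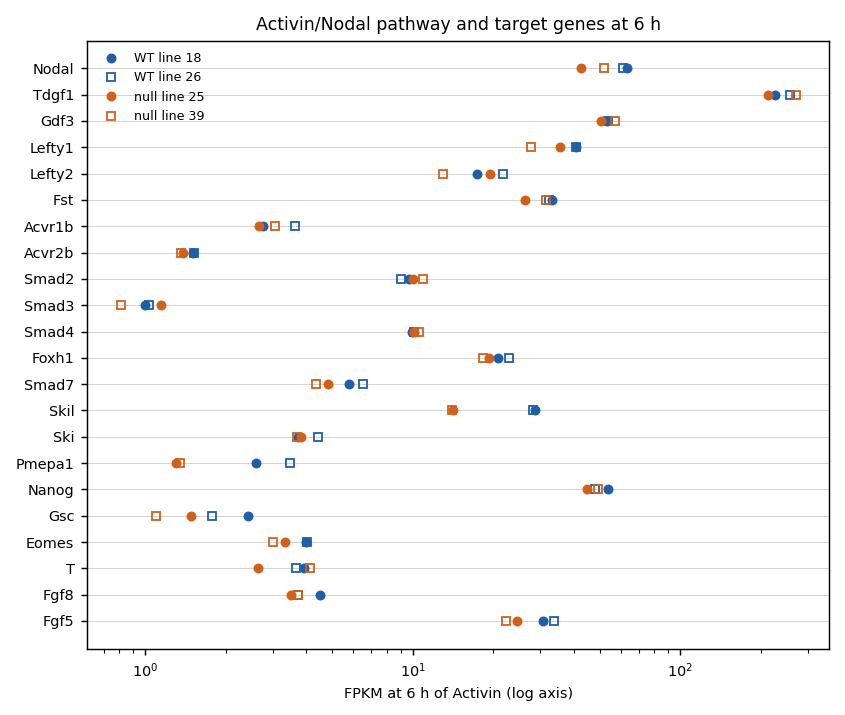
FPKM at 6 h (log axis) of pathway and target genes, 1 gene per row and 1 marker per library, with WT lines 18 and 26 in blue and null lines 25 and 39 in orange. Skil is separated and called, Smad7 and Pmepa1 are separated without a call, and Tdgf1, Gdf3 and Lefty2 overlap.

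Among 26 genes listed as Activin and Nodal targets, 1 fell (Skil) and 1 rose (Tagln), and the median log2 difference was -0.10 beside -0.01 over all genes. Both null lines lay below both WT lines at 10 of the 26 and above at 5, beside 25.7% and 23.7% of all genes. Genes of mesendoderm formation, which appear early in germ layer specification, gave no call by limma among 7, and 3 of the 7 were lower in both null lines, beside 25.7% of all genes. Eomes had 4.00 and 4.04 against 3.33 and 3.00 FPKM (-0.27, adjusted p = 0.28) and Gsc 2.42 and 1.78 against 1.48 and 1.10 FPKM (-0.44, adjusted p = 0.22). The differences for T and Fgf8 were -0.15 and -0.14, with overlapping lines for both. Cd40, with 30.8 and 26.7 against 28.0 and 30.4 FPKM, overlapped at 6 h (0.02), while at 3 h it was called lower (-0.87, adjusted p = 0.021). Irf1 had -0.30 (adjusted p = 0.23).

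A list was made from WT cells: genes called at 3 h against SB with an absolute log2 change of at least 1. The log2 changes behind it use no 6 h library and no null library. Its calls are not independent of these, since the spread and the filter on low values come from the fit of all 12 libraries. A change from SB to Activin also holds the removal of the inhibitor and the hours in culture. Of the 265 genes that Activin raised by this rule, 3 were lower (Gal, Zbp1 and Skil) and 1 was higher (1810011O10Rik) in null cells at 6 h. Both null lines lay below both WT lines at 104 of them (39.2%, against 25.7% of all genes) and above at 49 (18.5%, against 23.7%), with a median log2 difference of -0.09. Of the 37 genes that Activin lowered, 1 was called (Enpp2, lower) and 15 (40.5%) lay below WT in both null lines, with a median of -0.13. Genes of both directions were thus more often below than above WT in both null lines, by small amounts. Zbp1 is the partial locus described above, and without WT line 26 or without null line 39 1 of the 3 lower calls was left.

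Of the 19 genes that rose in null cells, 5 belong to the list of matrix, contractile and YAP-target genes. Of its 25 measured members, Anxa1, Anxa3, S100a6, S100a11 and Tagln rose, none fell, and 20 had an unadjusted p under 0.05. Both null lines were above both WT lines at 22 of the 25 (88.0%, against 23.7% of all genes) and below at 1. Like every list here other than the WT 3 h responders, this list was written with earlier results of these data known. Its share is therefore a description and not a test. The median log2 difference was 0.39 at 6 h, 0.40 in SB and 0.35 at 3 h. It ran from 0.32 to 0.48 when each of the 4 libraries was left out, with 2 of the 25 called each time, and 3 were called under quantile normalization, which ended the calls of Tagln (adjusted p = 0.15) and S100a6 (0.084).

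Anxa1, which encodes the phospholipid-binding protein annexin A1, had 56.2 and 48.1 FPKM in WT lines and 102 and 96.3 FPKM in null lines (log2 difference 0.92, SE 0.0836, adjusted p = 0.0055). Anxa3, of the same family, had 40.1 and 37.9 against 65.8 and 70.1 FPKM (0.78, SE 0.0564, adjusted p = 0.0013). Both were also called in SB, where Anxa1 had 31.9 and 30.7 against 74.4 and 71.3 FPKM. The calcium-binding proteins S100a6 (58.9 and 64.6 against 117 and 112 FPKM, 0.88, adjusted p = 0.036) and S100a11 (44.1 and 47.2 against 64.7 and 73.4 FPKM, 0.58, adjusted p = 0.021) followed. Several S100 proteins are known partners of annexins at membranes. Tagln, which encodes the actin-binding protein transgelin on a locus that overlaps Pcsk7, had 408 and 369.6 against 617 and 619 FPKM (0.67, SE 0.0903, adjusted p = 0.028). Among uncalled members of the list, Anxa2, which also neighbours Rnf111, had 32.5 and 32.0 against 57.7 and 48.9 FPKM (0.70, adjusted p = 0.15). Acta2, which encodes smooth muscle actin, had 74.1 and 69.7 against 130.2 and 104 FPKM (0.69, adjusted p = 0.18). Of the 25 members, 3 had a difference below 0: Myl9 (-0.42, adjusted p = 0.064), Tnnt1 (-0.16, 0.75) and Amotl2 (-0.03, 0.90). Myl9 was lower in SB (-0.51) and at 3 h (-0.61) as well. Nppb, a gene of a cardiac natriuretic peptide in the peptide hormone list, had 11.7 and 11.9 against 34.4 and 27.1 FPKM (1.30, adjusted p = 0.058). Acta2, Nppb, Myl9, Tnnt1 and Amotl2 were chosen after their values were seen.

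The summed level of 9 fibroblast markers in the table was 18.1 and 17.0 FPKM in WT and 23.6 and 19.2 FPKM in null lines. Of the 8 that were tested, 5 lay above and 2 (Dcn and Thy1) below WT in both null lines, with none called by limma. Col1a1, the main fibrillar collagen, stood at 0.945 and 0.833 against 1.58 and 1.04 FPKM, and Dcn at 1.73 and 2.08 against 1.09 and 1.50 FPKM. Trophoblast markers, 8 of 11 present, summed to 87.0 and 96.4 against 157 and 126 FPKM, most of it from the keratin genes Krt18 and Krt8. Krt18 alone had 54.3 and 60.8 against 111 and 94.4 FPKM (0.82, adjusted p = 0.084). Of the 8 trophoblast markers, 2 lay above and 2 (Ascl2, -0.39, and Eomes, -0.27) below WT in both null lines. Cdx2 overlapped, as did Krt8 (22.9 and 25.8 against 36.7 and 23.5 FPKM). The fibroblast and trophoblast sums were thus higher in both null lines, as the annexin and actin genes were. Krt18 was the top gene of the trophoblast sum in each library. The part of these marker sums in the annexin and actin result was not tested. Dcn, Thy1, Ascl2, Cdx2 and Krt8 were chosen after their values were seen. Endoderm markers overlapped, with sums of 5.64 and 4.08 against 5.44 and 5.36 FPKM. So did germline markers (103.7 and 120.8 against 90.8 and 121.3 FPKM). The neural sums were lower in both null lines (43.3 and 41.8 against 40.1 and 38.8 FPKM). In bulk samples, more cells of a type and more RNA per cell cannot be told apart.

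Tnni2 and Tnnc1, which encode subunits of troponin, the calcium switch of striated muscle, rose as well. Tnni2 (fast skeletal troponin I) had 0.964 and 1.89 FPKM in WT and 4.90 and 7.27 FPKM in null lines (log2 difference 1.55, SE 0.198, adjusted p = 0.025). This was the largest rise of any called gene on the log2(FPKM + 1) scale, while the ratio of means was larger at Cfap74 (8.48 against 4.26). Tnnc1 (slow and cardiac troponin C, overlapping Nisch) had 4.99 and 4.89 against 12.1 and 10.3 FPKM (1.03, SE 0.105, adjusted p = 0.0083) and was called in SB and at 3 h too. The other 4 troponin genes tested, chosen after their values were seen, were uncalled, with values on both sides of 0: Tnnt3 had 0.55 (adjusted p = 0.34), Tnnt1 -0.16 (0.75), Tnnc2 -0.19 (0.70) and Tnni1, on a partial locus, -0.42 (0.26). Tnni2 had a smaller difference at 3 h (0.18, 4.83 and 5.57 against 6.18 and 5.81 FPKM), where WT lines were higher than at 6 h.

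Id3 encodes an inhibitor of basic helix-loop-helix factors and is a direct target of BMP signalling through SMAD1 and SMAD5. It had 47.3 and 49.5 FPKM in WT and 73.8 and 77.8 FPKM in null lines (0.64, SE 0.0655, adjusted p = 0.0083), and was also called in SB (0.82) and at 3 h (1.09). Among 16 BMP targets Id3 was the called one, while 9 of the 16 lay above WT in both null lines and 2 below (23.7% and 25.7% of all genes), with a median log2 difference of 0.26. Under quantile normalization the difference at Id3 was 0.55 and not called (adjusted p = 0.067). Id1, from the same family, had 14.5 and 10.1 against 21.9 and 23.0 FPKM (0.83, adjusted p = 0.12), and its difference in SB was 1.73 (adjusted p = 0.0061). Bmp4 had 0.69 (adjusted p = 0.20) and Msx2 0.41 (0.21).

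Further genes rose by similar amounts. Wls, which carries WNT ligands to the cell surface, had 31.5 and 29.6 against 49.2 and 53.2 FPKM (0.72, SE 0.0649, adjusted p = 0.0055). The calcium-binding proteins Sri (sorcin; 19.8 and 19.8 against 27.3 and 27.2 FPKM) and Rcn2 (reticulocalbin 2; 73.0 and 72.7 against 98.9 and 95.6 FPKM) differed by 0.44 and 0.41, and the reticulum protein Bcap29 by 0.48. B3galnt1, a glycosyltransferase, differed by 0.47. Ifi202b, of the interferon-inducible HIN-200 family, had 1.07 and 0.902 against 3.93 and 3.04 FPKM (1.17, adjusted p = 0.022). Members of that family resemble each other closely, so its reads may be split among copies. The zinc-finger gene Zfp869 (0.95), 1810011O10Rik (0.79), the processed pseudogene Gm5552 (0.84, overlapping Dnajb6), and the partial loci Cfap74 (1.06) and Ociad2 (0.80) complete the 19. The name 1810011O10Rik had no match in GENCODE M21, which annotates Tcim and Gm26714 at its locus. Cfap74 had 0.152 and 0.187 against 1.42 and 1.45 FPKM, a ratio of null to WT means of 8.48. It reached 1 FPKM in null libraries only. The partial loci of Cfap74 and Ociad2 cover 0.22 and 0.021 of their annotated genes. Bcap29, Sri, Rcn2 and B3galnt1 fall outside the rule for named genes and were chosen after their values were seen. Under quantile normalization Rcn2 (adjusted p = 0.11) and Gm5552 (0.060) were not called.

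Promoter sequence from RefSeq (GRCm38.p6) was matched by symbol for 17 of the 27 called genes, 4 that fell and 13 that rose. The 250 bases before the RefSeq start of Gal, the gene with the largest fall, are shown beside those of Id3, Anxa1 and Tnnc1, which rose. The loci of the FPKM table reach further 5′, so the windows of Gal and Anxa1 lie inside the table's loci and those of Id3 and Tnnc1 overlap them in part. They read 5′ to 3′ on the gene's strand, with capitals for CAGAC (the SMAD-binding letters; GTCTG on the other strand) and for GGAATG (the TEAD-binding letters; CATTCC on the other strand). The windows are chr19:3414545-3414794 (minus) for Gal, chr4:136143572-136143821 (plus) for Id3, chr19:20390672-20390921 (minus) for Anxa1 and chr14:31208062-31208311 (plus) for Tnnc1.
Gal: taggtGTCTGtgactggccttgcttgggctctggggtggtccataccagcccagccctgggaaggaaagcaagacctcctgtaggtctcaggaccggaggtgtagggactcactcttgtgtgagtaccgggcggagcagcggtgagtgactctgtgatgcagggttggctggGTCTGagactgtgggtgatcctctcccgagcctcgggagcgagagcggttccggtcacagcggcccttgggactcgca
Id3: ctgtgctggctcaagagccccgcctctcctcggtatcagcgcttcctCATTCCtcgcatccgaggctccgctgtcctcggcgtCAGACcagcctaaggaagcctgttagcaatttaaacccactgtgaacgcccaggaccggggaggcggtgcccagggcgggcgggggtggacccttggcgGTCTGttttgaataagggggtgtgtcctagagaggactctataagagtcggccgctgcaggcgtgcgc
Anxa1: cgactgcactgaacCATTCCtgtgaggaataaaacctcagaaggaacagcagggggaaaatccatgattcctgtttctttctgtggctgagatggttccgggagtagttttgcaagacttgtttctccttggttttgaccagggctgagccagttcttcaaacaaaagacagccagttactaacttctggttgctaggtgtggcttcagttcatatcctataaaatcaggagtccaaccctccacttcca
Tnnc1: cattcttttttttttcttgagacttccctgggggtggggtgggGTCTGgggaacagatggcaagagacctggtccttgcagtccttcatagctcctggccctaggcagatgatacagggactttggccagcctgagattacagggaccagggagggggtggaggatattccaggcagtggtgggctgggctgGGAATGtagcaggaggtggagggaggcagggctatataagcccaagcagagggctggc

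In these windows CAGAC occurred 2 times at Gal, 2 times at Id3, 1 time at Tnnc1 and 0 times at Anxa1. GGAATG occurred 0 times at Gal and 1 time in each of the other windows. Id3, Anxa1 and Tnnc1 were picked for printing by no stated rule, so their windows do not stand for the genes that rose. Over the called genes with a promoter, CAGAC on either strand was in 3 of 4 that fell and 8 of 13 that rose, beside 45.8% of all 27025 genes with a promoter. GGAATG was in 0 of 4 and 5 of 13, beside 14.4%. The AP-1 letters TGANTCA were in 0 and 3 (7.82% of genes), and GGCGCC, letters of the GC-rich SMAD element, in 1 and 1 (10.8%). AATCCACA (FOXH1; 0.862%) and GTCTAGAC (0.200%) were in none of the 17. A match describes letters in these windows and not a bound site.

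Genes of the primed state tended to be lower in null lines, by small amounts and without a call. All 16 genes of the formative and primed list were uncalled by limma, although 15 of them (93.8%, against 25.7% of all genes) were lower in both null lines, and 11 had an unadjusted p under 0.05. The list's median was -0.26 at 6 h, -0.31 in SB and -0.12 at 3 h. Fgf5, the marker of primed epiblast, had 30.7 and 33.6 against 24.5 and 22.3 FPKM (-0.44, adjusted p = 0.056), and was called lower in SB (-0.61) and at 3 h (-0.59). Fgf15 (-0.45), Etv4 (-0.42) and Zic2 (-0.37) had adjusted p of 0.25, 0.22 and 0.12. Of 11 naive genes, 4 were higher and 1 lower in both null lines (23.7% and 25.7% of all genes), with a median of 0.18 and no call by limma. Without null line 25 that median was -0.01. Zfp42, a marker of the naive state, had 49.4 and 45.4 against 64.9 and 61.9 FPKM (0.41, adjusted p = 0.062), Dppa3 0.71 (0.22) and Fgf4 -0.41 (0.13).

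The core factors were close between genotypes. Pou5f1 overlapped (915 and 870.0 against 739 and 926 FPKM, -0.11), as did Nanog (53.8 and 48.2 against 44.7 and 49.5 FPKM, -0.11). Sox2 had 22.9 and 22.4 against 20.5 and 18.9 FPKM (-0.19, adjusted p = 0.35). Within the 18 core genes, Zscan10 had -0.67 (adjusted p = 0.099) and Fbxo15 0.51 (0.11), and 9 of the 18 were lower in both null lines, beside 25.7% of all genes.

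**Figure D4:**
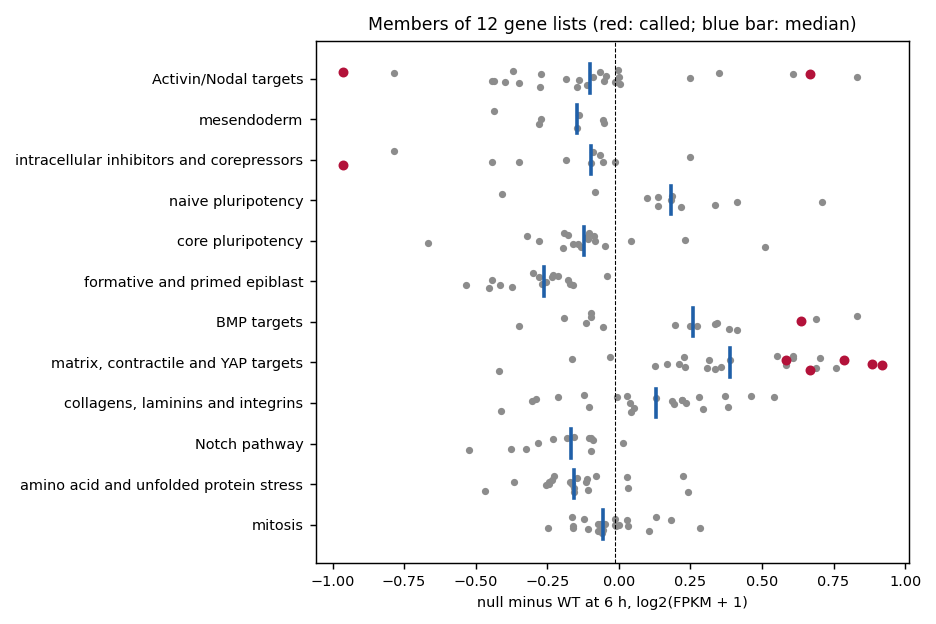
Null minus WT difference in log2(FPKM + 1) at 6 h (horizontal axis) of the measured members of 12 gene lists, 1 point per gene, with called genes in red, the list's median as a blue bar and the median over all genes as a dashed line. The matrix, contractile and YAP-target list has a median of 0.39 and the formative and primed list one of -0.26, beside -0.01 over all genes.

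Other lists held few called genes. Beside the counts that follow, both null lines lay above both WT lines at 23.7% and below at 25.7% of all genes. Of 16 interferon genes none was called by limma, with 8 lower and 2 higher in both null lines: Psmb8 had -0.81 (adjusted p = 0.15), Ifi35 -0.60 (0.12) and Parp14, on a partial locus, 1.18 (0.35). Of 12 Notch genes 8 were lower in both null lines, among them the effector-related gene Hes6 (207 and 194 against 154 and 154 FPKM, -0.38, adjusted p = 0.13), the ligand Dll3 (-0.52, 0.34) and the feedback gene Nrarp (-0.32, 0.41). Of 21 stress genes 13 were lower, with Slc7a11, on a partial locus, at -0.47 (0.28) and Creld2 at -0.37 (0.20). Of 17 p53 targets 11 were lower, with Pmaip1 at -0.38 (0.19). The neuropeptide list of 8 genes held Gal as its called member. Of 13 genes next to Rnf111 on chromosome 9, none was called by limma, and 5 were higher and 1 lower in both null lines: Anxa2 had 0.70, Foxb1 -0.47 (partial locus, adjusted p = 0.56) and Gtf2a2 0.41 (0.31).

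Most of the 27 differences were present at the other treatments. The sign was the same for 26 genes in SB, with Gal the exception, and for 27 at 3 h. In SB, where 40 genes were called (0.312%), 16 of the 27 were called in the same direction, 12 that rose and 4 that fell. At 3 h, where 49 were called (0.382%), 15 were. Called in both were 9 genes: Rnf111, Gm1840, Id3, Anxa1, Anxa3, Wls, S100a11, Tnnc1 and Cfap74. Called at 3 h and not in SB were 6 genes, of which Gal, Skil, Zbp1 and Tcfl5 were lower and 1810011O10Rik and Ifi202b higher. The 5 called at 6 h alone were Bcap29, Gm5552, Ociad2, Sri and Tnni2. The treatments share cell lines but no library.

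**Figure D5:**
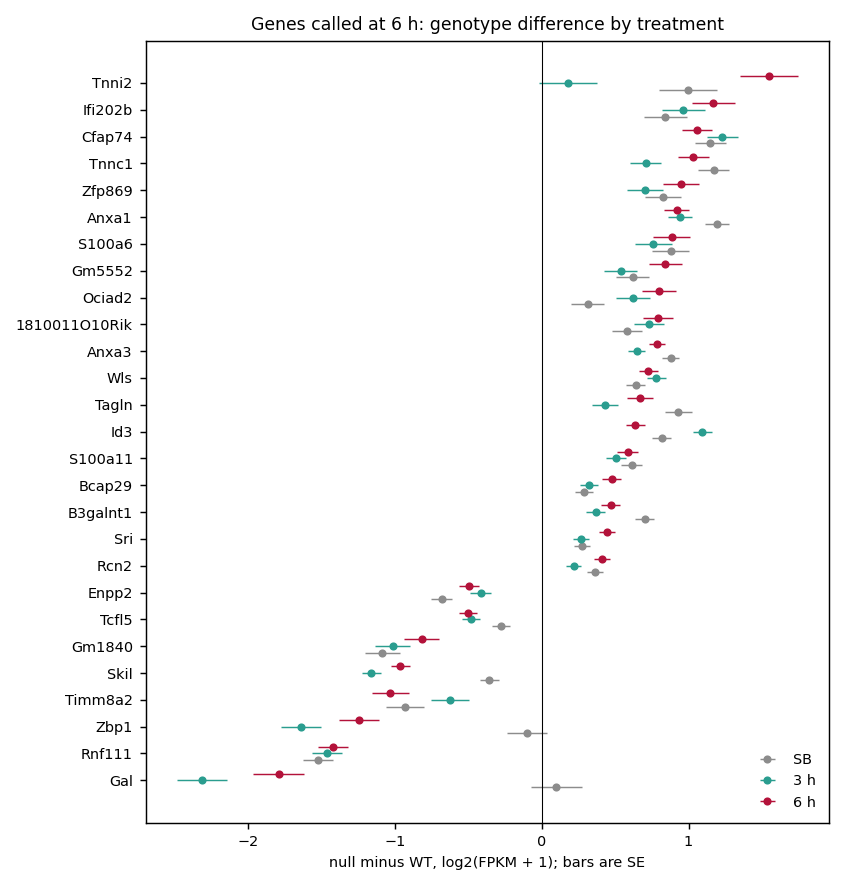
Null minus WT difference in log2(FPKM + 1) (horizontal axis) in SB (grey), at 3 h (green) and at 6 h (red) of Activin for the 27 genes called at 6 h, with the SE of the fit as error bars. Gal moves from 0.10 in SB to -2.32 at 3 h and -1.79 at 6 h, while Anxa1 stays between 0.92 and 1.19.

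The difference between the genotypes at 6 h was tested directly against that in SB and at 3 h. No gene passed limma's adjusted p of 0.05 in either test; 382 genes (2.98%) and 486 genes (3.79%) had an unadjusted p under 0.05, and the smallest adjusted p was 0.443 and 0.439. A line-blocked fit gave 0 as well, with 716 and 1176 genes at an unadjusted p under 0.05. The largest values among called genes for 6 h against SB were at Gal (-1.89, SE 0.244, adjusted p = 0.443), Zbp1 (-1.15, SE 0.190, 0.58) and Skil (-0.61, SE 0.0920, 0.51), all 3 already chosen for their 6 h value. From 3 h to 6 h the largest change among called genes was at Tnni2, where the difference widened by 1.37 (SE 0.280, limma adjusted p = 0.99). At Timm8a2 it widened by 0.41 and at Id3 it shrank by 0.46 (adjusted p = 0.99 each). The difference at Gal, Zbp1 and Skil shrank by 0.52, 0.39 and 0.20 (adjusted p = 0.99 each). None of these changes between times passed the threshold.

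With 4 libraries the calls rest on a spread pooled over all 6 groups: in the 4 libraries alone none passed (limma; 1470 at an unadjusted p under 0.05), and an exact permutation of 2 against 2 cannot go below p = 0.333. Leaving out 1 library of the 4 left 7 calls without WT line 18, 5 without WT line 26, 6 without null line 25 and 7 without null line 39. Rnf111, Skil and Anxa3 were called each time. S100a11, Tnnc1 and Tnni2 kept their calls in 1 of these fits each. Tagln, S100a6, Id3, Ifi202b, Timm8a2, Tcfl5 and Enpp2 lost theirs each time, as did the called genes not named in this paragraph. Anxa1 missed the threshold without null line 25 (adjusted p = 0.051), Wls without WT line 26 (0.078), and Gal without WT line 26 (0.078) or without null line 39 (0.076). Zbp1 kept its call without WT line 18 (0.037) and missed it without WT line 26, null line 25 or null line 39 (0.092, 0.070 and 0.11).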

How the data were processed

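RNA from 12 libraries of mouse embryonic stem cells was sequenced, per the labels' protocols, as 50 bp single reads from poly(A) RNA primed with random hexamers. The authors deposited FPKM per gene locus and library, on mm10, the build named by the submitters' processing notes. For the aligner, the quantifier, strand use and any scaling of libraries, the answer is not given in the sources used here. Hence values of overlapping and antisense genes are uncertain. Read totals are unknown.

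Of 17446 loci, 2666 carry no gene name and were left out of the main test, among them 1413 on X, Y or the mitochondrial genome, where no locus is named. Keeping 1 locus per name and status OK gave 13508 genes, of which 12870 (95.3%) matched GENCODE M21 by symbol and chromosome. A locus covering under 0.5 of the annotated gene is called partial. Coordinates are those of the table, counted from 1.

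The 12823 genes that reached 1 FPKM in 2 or more libraries were fitted with limma 3.58.1 in R 4.3.3. The fit used log2(FPKM + 1), 1 mean per group (6 groups), a variance trend and 6 residual degrees of freedom. This scale understates changes of genes with low FPKM. All tests are two-sided, p-values were adjusted by Benjamini-Hochberg across the tested genes, and the threshold was 0.05. Named genes are Rnf111, up to 12 non-overlapping called genes per direction by size (where fewer were called, further ones by p with an absolute log2 difference of at least 0.5), a fixed list of pathway genes, and from each list its called members or up to 3 with the largest difference. The members and lists were chosen with earlier results of these data known. Lists are described by counts and medians.

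Other pseudocounts, filters, scalings, spread estimates, left-out libraries and lines, the line as a replicate block, and line means were tried. The same line occurs in each treatment, and deviations of a line from its group mean correlated between treatments at 0.0165 to 0.0537 in WT and 0.246 to 0.349 in null lines. Null and WT share no line, so a fixed block was possible for the differences between times, and a random block for null against WT. List values under other scalings were added after seeing the data.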

Additional observations from a re-analysis of the deposited data

Results flagged for a closer look

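Unnamed loci, which include all of the table's X-linked loci, were read from a second fit over all loci with status OK, named or not. Their p-values were adjusted across all loci of that fit. The choice was made after seeing the data, and the unnamed loci belong to no comparison above. Of 2275 such loci with enough signal, 2 (0.0879%) were called by limma between genotypes at 6 h, and both were higher in null lines. The first (mm10, chromosome X, 140006712 to 140007873), within annotated Nup62cl, had 28.2 and 28.2 FPKM in WT lines 18 and 26 and 50.2 and 56.7 FPKM in null lines 25 and 39 (log2 difference 0.90, SE 0.0958, adjusted p = 0.015). The second (chromosome X, 155213129 to 155215823), at Sat1, a gene of polyamine breakdown, had 9.85 and 8.27 FPKM in WT and 16.5 and 18.96 FPKM in null lines (log2 difference 0.90, SE 0.117, adjusted p = 0.033). In SB the Nup62cl locus had 24.3 and 27.5 FPKM in WT and 41.0 and 46.2 FPKM in null lines, and the Sat1 locus had 3.69 and 4.48 FPKM in WT and 5.54 and 6.21 FPKM in null lines.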

How the results depend on the processing

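The 27 calls at 6 h became 26 to 36 under other pseudocounts, filters, scalings, locus sums and variance models, and 31 with the line as a random replicate block, of which 25 were among the 27. With the line as a fixed block the differences between times gave 0 calls, as under every other alternative run. Leaving out 1 of the 4 libraries gave 5 to 7 calls. Leaving out a whole line gave 0 without WT line 18 or WT line 26, 1522 without null line 25 and 8 without null line 39, where the lone line is assumed to vary like the other groups. The 4 libraries alone and the means of the lines gave 0 and 0 calls (limma; 1470 and 1710 at an unadjusted p under 0.05). No called gene changed sign in any alternative.

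Signs of small uncalled differences turned in places. On line means the values were 0.055 for Tdgf1, 0.113 for Smad3, -0.020 for Smad4, 0.0090 for Nanog, 0.055 for Sox2, 0.151 for Cdx2 and -0.164 for Cd40. Under quantile normalization they were -0.061 for Gdf3, 0.012 for Smad3 and -0.019 for Cd40, and under upper quartile scaling -0.0105 for Gdf3. Without a library or line, they ran from -0.172 to 0.166 for Tdgf1 (0.092 without WT line 26), -0.082 to 0.0865 for Gdf3 (-0.0041 without WT line 18), -0.264 to 0.037 for Acvr1b, -0.156 to 0.088 for Smad3, -0.190 to 0.0108 for Ski, -0.270 to 0.053 for Pou5f1, -0.396 to 0.101 for T, -0.228 to 0.105 for Cdx2, -0.359 to 0.035 for Tnnt1, -0.519 to 0.133 for Tnnc2 and -0.077 to 0.121 for Cd40 (-0.0351 without null line 39). The cause of these changes and of the lost calls was not tested. Depth was lowest in null line 39, so low genes are least precise there.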
